A study of Drosophila melanogaster with 12 samples.

Results

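The response of wild-type Drosophila melanogaster to phenobarbital was read from 6 of the 12 oligonucleotide arrays of a study of adult flies. The members were taken by their labels: 3 arrays of Canton S, a laboratory strain used as wild type, given sucrose with 0.3% phenobarbital, and 3 arrays of Canton S given sucrose alone, both after a night of starvation. All 18769 probe sets were tested, and 11982 genes were read through 1 probe set each. The other 6 arrays, labelled E25 and read by elimination as the DHR96 mutant that the study's design names, were 3 on sucrose with 0.3% phenobarbital and 3 on sucrose alone, and entered the fit as groups of their own. DHR96 is a nuclear receptor. The RNA is total RNA of adults, and the labels leave out the sex of the flies. Since they do not state that arrays of a diet are separate cultures, p-values measure only the spread among these arrays, which can be technical.

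Phenobarbital is a barbiturate that insects and mammals clear with the same kinds of enzymes. Cytochrome P450s, esterases and oxidoreductases first expose or add a reactive group, transferases then attach glutathione, sugar or sulfate, and transporters carry the product out. In flies this work falls largely to the fat body, the midgut and the Malpighian tubules, organs that also run fat, sugar and amino acid metabolism. P450s draw electrons from NADPH and hold heme, and conjugation uses glutathione, so the supply of these compounds belongs to the same picture.

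The deposited values are intensities made with GCRMA, and log2 of them is called the level here. Over the 6 arrays the median intensity was 41.1 to 47.5, and 44.4% to 45.3% of probe sets lay under a log2 level of 4, called dim. The SD of the log2 differences between arrays of 1 diet was 0.265 to 0.363 on phenobarbital and 0.316 to 0.527 on sucrose. Sucrose replicate 2 stood apart from the other sucrose arrays, with SDs of 0.484 and 0.527, and 3 arrays a diet limit the precision. Without it 591 of the genes were called against 705 with it, and 550 were the same. It had the highest summed intensity of 30 testis genes (92851, against 45017 to 72487 over the other wild-type arrays) and the lowest of 15 oocyte and germline genes (15982, against 19034 to 32284). Its part in the results was not tested. In whole-fly RNA, fewer cells of a type and less RNA per cell cannot be told apart.

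Phenobarbital changed many genes in each direction, and the rises were the steeper. A gene was called when limma gave an adjusted p under 0.05 over all probe sets and the change was at least 1.5-fold. By this rule 379 genes rose, 3.16% of those tested, and 326 fell, 2.72%, while the median log2 change over all genes was 0.01. In all 379 genes that rose and all 326 that fell, the arrays of the diets did not overlap. For a called gene, a lack of overlap reported below therefore adds nothing to the call. The share of all genes without overlap is not given here, and with 3 arrays a diet unchanged genes can separate too. The rise reached 4-fold in 101 genes and 10-fold in 35, and the fall did so in 62 and 25. Among the genes that rose, 32 were dim on sucrose, and among those that fell, 38 were dim on phenobarbital. Where a group is dim, the size of a fold rests on how GCRMA models background. Genes already bright on sucrose, at a log2 level of 12 or more, gave 12 rises and 38 falls.

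The same contrast in the mutant, which shares no array with wild type, gave 4.27% of genes higher and 2.2% lower. There, 362 of the 379 genes that rose in wild type rose too, and 204 of the 326 that fell did so. Calls in 1 genotype alone are not differences between genotypes. Tested directly, the wild-type and mutant changes differed in 0 probe sets with limma (smallest adjusted p 0.072, with 624 probe sets at an unadjusted p under 0.05). Of the called genes, 151 that rose and 74 that fell belonged to 62 lists of 1199 genes grouped by function. The lists were chosen with earlier results of these data known, so their counts below are descriptions, also where set beside the share over all genes.

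**Figure D1:**
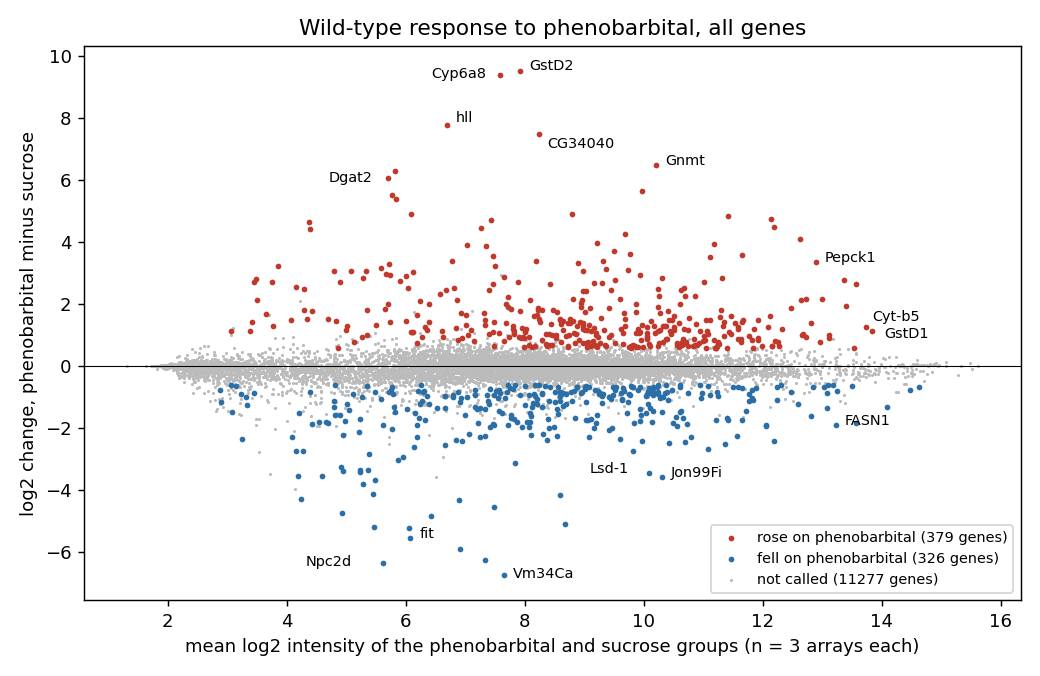
The log2 change of each gene (vertical axis, phenobarbital minus sucrose) is plotted against its mean log2 intensity over both diets (horizontal axis), with 1 point per gene and 3 arrays a diet. The 379 genes that rose (red) reach a change of 9.52 and the 326 that fell (blue) reach -6.73; the grey points were not called.

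**Figure D2:**
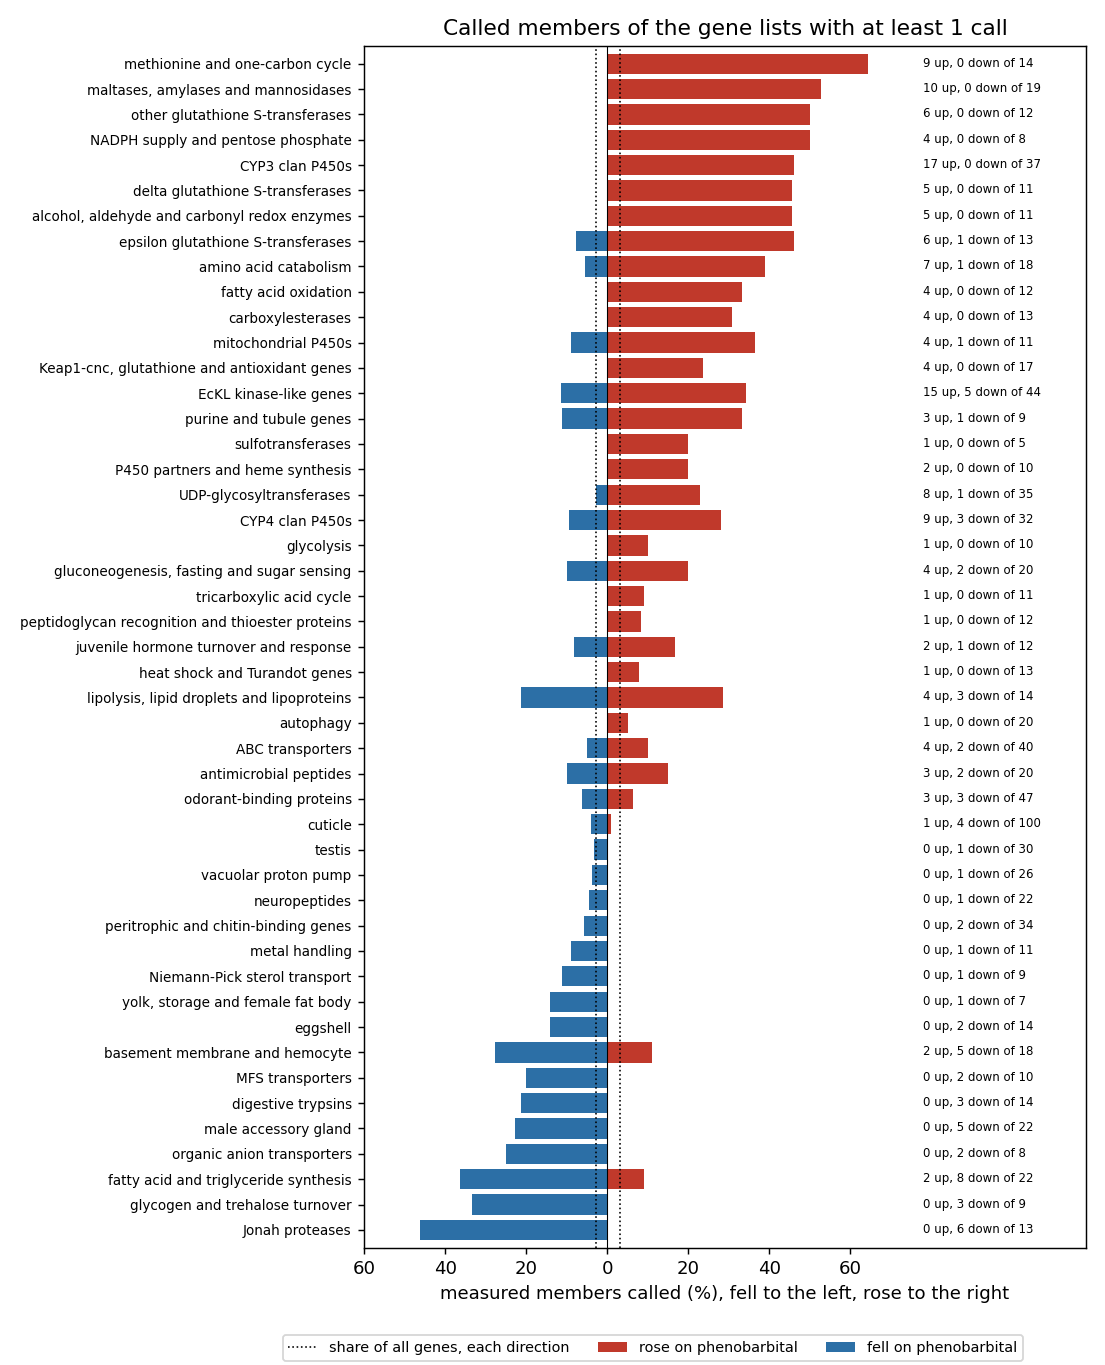
For each list with at least 1 call, bars give the percentage of measured members that rose (red, to the right) and fell (blue, to the left), and the numbers at the right give the counts. The dotted lines mark the shares over all genes, 3.16% and 2.72%; the list of methionine and one-carbon genes has the longest red bar, 9 of 14, and the Jonah proteases the longest blue bar, 6 of 13.

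Cytochrome P450s of the CYP3 and CYP4 clans, which hold the known drug- and insecticide-metabolising enzymes of flies, made up the broadest block of rises among the detoxifying enzymes. In the CYP3 clan 17 of 37 measured members rose and 0 fell, with a median log2 change of 0.7. Cyp6a8 had levels of 12.29, 12.32 and 12.27 on phenobarbital, against 2.92, 3.02 and 2.71 on sucrose, dim on sucrose and bright on phenobarbital in every array. Cyp6a21 was at 12.74, 12.7 and 12.95 on phenobarbital, against 7.35, 7.31 and 6.77 on sucrose, and both genes stood far outside the spread within a diet (adjusted p = 5.1e-10 and 1.5e-07). Cyp6d5 had levels of 14.9, 14.96 and 14.83 on phenobarbital, against 12.48, 12.29 and 11.92 on sucrose. The diets did not overlap, and the change of 2.66 ± 0.12 (SE) was 6.34-fold (adjusted p = 3e-06, limma). Cyp6g1, the P450 whose overexpression gives resistance to DDT, stood at 13.39, 13.43 and 13.41 on phenobarbital, against 11.6, 11.82 and 11.2 on sucrose. Its rise was 3.66-fold (adjusted p = 4.8e-05), on top of a level far above dim on sucrose. Cyp6a2, another gene known from insecticide resistance, rose by 4.11 ± 0.15, Cyp6w1 by 4.5 ± 0.2 and Cyp309a1 by 5.4 ± 0.17 on the log2 scale (adjusted p between 5.4e-07 and 3.7e-06). Below these came Cyp6a14 (2.84), Cyp6a23 (2.28) and Cyp309a2 (1.82), with adjusted p up to 0.0021. Cyp28a5, Cyp6a13 and Cyp9b1 followed at log2 changes of 1.15, 1.05 and 1.05, and Cyp6a22, Cyp6a20, Cyp28d1 and Cyp9b2 were the weakest, at 0.7 to 0.91. These 4 did not keep their calls when single arrays were left out. Cyp6a22 lost its call without phenobarbital replicates 1, 2 or 3 or sucrose replicates 1 or 2 (log2 change 0.69 to 0.99). Cyp6a20 lost its call without phenobarbital replicates 1, 2 or 3 or sucrose replicates 1 or 3 (log2 change 0.52 to 0.83). Cyp28d1 lost its call without phenobarbital replicates 1, 2 or 3 or sucrose replicates 2 or 3 (log2 change 0.49 to 0.79). Cyp9b2 lost its call without phenobarbital replicates 2 or 3 or sucrose replicate 3 (log2 change 0.57 to 0.66). Cyp6a20, Cyp6a22, Cyp28a5, Cyp28d1, Cyp9b1 and Cyp9b2 were no longer called with the 6 wild-type arrays fitted alone (adjusted p 0.095 to 0.31).

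The CYP4 clan and the mitochondrial P450s moved in both directions. Of the CYP4 clan, 9 of 32 measured members rose and 3 fell. Cyp4e2 gave the smallest adjusted p of the clan, with levels of 13.64, 13.81 and 13.69 on phenobarbital, against 11.64, 11.6 and 11.45 on sucrose. This 4.43-fold rise (adjusted p = 5.5e-07) was well outside the spread within each diet. Cyp4e3 rose by 3.9 ± 0.3, Cyp4d14 by 4.46 ± 0.57, Cyp4d1 by 2.9 ± 0.42 and Cyp4p1 by 1.83 ± 0.18, while Cyp4d2, Cyp4p2, Cyp4s3 and Cyp4ac3 rose by 0.94 to 1.4. Cyp4d21 fell by 3.39 on the log2 scale, Cyp313a1 by 1.66 and Cyp4d20 by 0.83. Among the 11 mitochondrial P450s measured, 4 rose, led by Cyp12d1-d, whose levels were 6.96, 6.54 and 6.35 on phenobarbital, against 3.39, 3.76 and 3.51 on sucrose. It was dim in every sucrose array and rose 8.35-fold (adjusted p = 1.9e-05). Cyp12a5 (1.67 ± 0.16), Cyp12c1 (1.34 ± 0.23) and Cyp12a4 (0.8 ± 0.14) rose less, and Cyp12b2 fell by 0.91. The 6 measured genes of the CYP2 clan, which holds ecdysteroid enzymes, gave 0 calls with limma, with 1 at an unadjusted p under 0.05. Of the 6, 4 were dim in both diets, where a change could be missed. Cyp18a1, which inactivates ecdysteroids, changed by -0.08 ± 0.29, and Cyp305a1 by -0.61 ± 0.21 (adjusted p = 0.18). Cyp4p2 lost its call without phenobarbital replicates 2 or 3 or sucrose replicates 2 or 3 (log2 change 0.96 to 1.1). Cyp4d20 lost its call without phenobarbital replicates 1 or 3 or sucrose replicates 1, 2 or 3 (log2 change -0.68 to -0.88). Cyp12b2 lost its call without phenobarbital replicates 1 or 3 or sucrose replicates 1 or 2 (log2 change -0.74 to -0.89). Cyp4d1, Cyp4d14, Cyp4d20, Cyp4d21, Cyp4p2, Cyp4ac3, Cyp12a4, Cyp12b2 and Cyp12c1 were no longer called with the 6 wild-type arrays fitted alone (adjusted p 0.062 to 0.29).

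Cyt-b5, cytochrome b5, which feeds P450s with electrons, and the related gene Cyt-b5-r rose, while the heme synthesis genes gave no call. Cyt-b5 was at 14.29, 14.48 and 14.35 on phenobarbital, against 13.18, 13.15 and 12.99 on sucrose. That is a 2.41-fold rise (adjusted p = 5.2e-06). Cyt-b5-r, named as cytochrome b5-related, had 12.49, 12.81 and 12.72 on phenobarbital, against 11.45, 11.17 and 10.93 on sucrose, 2.81-fold higher (adjusted p = 0.00024). Both genes separated the diets completely. The enzyme that starts heme synthesis, Alas, had levels of 12.6, 12.85 and 12.64 on phenobarbital, against 12.48, 12.26 and 11.95 on sucrose. Its change of 0.46 ± 0.12 was under 1.5-fold and its p missed the threshold (adjusted p = 0.066). Pbgs, of the next step, gave 0.56 ± 0.15 (adjusted p = 0.074), and the ferrochelatase gene FeCH 0.06 ± 0.08 (adjusted p = 0.64). Over the 10 measured genes of this list the median log2 change was 0.32. Cpr, another P450 partner gene of the list, was not among them.

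Other enzymes of the first phase of drug metabolism rose too. Among 11 alcohol, aldehyde and carbonyl redox enzymes 5 rose and 0 fell. Sodh1, a sorbitol dehydrogenase, was at 11.2, 11.52 and 11.2 on phenobarbital, against 8.53, 8.34 and 7.68 on sucrose. The difference of 3.12 ± 0.28 (adjusted p = 0.00022) was accompanied by its paralog Sodh2 (1.34 ± 0.19) and the aldo-keto reductase gene CG12766 (3.09 ± 0.23). Of 13 carboxylesterases, hydrolases of esters that include insecticides, 4 rose and 0 fell. alpha-Est5 and alpha-Est10 rose by 1.07 ± 0.11 and 1.12 ± 0.13, and Est-Q and alpha-Est7 by 1.23 ± 0.16 and 1.22 ± 0.17. Of the sulfotransferases St1 alone rose, 2.48-fold, among 5 measured. Aldehyde oxidases and flavin monooxygenases, a family list drawn up after the values were seen, gave AOX3 at 1.5 ± 0.06, AOX1 at 0.98 ± 0.09 and Fmo-1 at 1.71 ± 0.22. AOX3 had levels of 11.19, 11.33 and 11.13 on phenobarbital, against 9.77, 9.79 and 9.6 on sucrose, with no overlap. The wild-type arrays alone gave 3 of the 5 redox rises. alpha-Est7 was no longer called with the 6 wild-type arrays fitted alone (adjusted p = 0.07).

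Glutathione S-transferases, which join glutathione to electrophiles, had rises in each of 3 lists. Of the delta class 5 of 11 measured members rose and 0 fell, and of the epsilon class 6 of 13 measured members rose and 1 fell. The other glutathione S-transferases, among them omega, theta and microsomal genes, gave 6 rises and 0 falls among 12. GstS1 was not called (-0.22 ± 0.17). GstD1, which also breaks down DDT, had levels of 14.4, 14.48 and 14.37 on phenobarbital, against 13.2, 13.1 and 13.49 on sucrose. It rose 2.22-fold without overlap (adjusted p = 0.00021). GstE1 stood at 10.65, 11.3 and 10.83 on phenobarbital, against 7.98, 8.45 and 7.95 on sucrose, a 6.95-fold difference (adjusted p = 4.6e-05). GstE7 (4.92 ± 0.3), GstE3 (3.51 ± 0.22), GstE6 (3.24 ± 0.41), GstE5 (2.75 ± 0.22) and GstE9 (1.4 ± 0.17) rose as well, and GstE10 fell by 0.95. In the delta class GstD2 had 12.6, 12.81 and 12.65 on phenobarbital, against 3.24, 3.54 and 2.72 on sucrose, a change of 9.52 ± 0.24 (adjusted p = 1.4e-07). GstD7 was at 8.66, 9.13 and 9.12 on phenobarbital, against 2.53, 2.59 and 2.93 on sucrose, and both were dim on sucrose. GstD5 rose by 3.17 ± 0.66 and GstD3 by 1.31 ± 0.16. Outside these classes the changes were small and tight: GstO3 1.03 ± 0.18, GstO2 0.88 ± 0.08, GstT4 0.88 ± 0.13, Mgstl 0.66 ± 0.07, GstT1 0.64 ± 0.07 and GstT3 0.62 ± 0.07. A second probe set of Mgstl, also above dim, changed by -0.03, so its probe sets disagree. Probe sets of close paralogs in these clusters can share signal. GstD5 lost its call without phenobarbital replicates 1 or 2 or sucrose replicates 2 or 3 (log2 change 2.86 to 3.25). GstE10 lost its call without phenobarbital replicates 1 or 2 or sucrose replicates 1 or 2 (log2 change -0.82 to -0.95). GstT1 lost its call without sucrose replicate 2 (log2 change 0.57). GstT3 lost its call without phenobarbital replicate 3 (log2 change 0.56). GstE6, GstE9, GstE10, GstO3 and GstT4 were no longer called with the 6 wild-type arrays fitted alone (adjusted p 0.051 to 0.19).

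UDP-glycosyltransferases attach sugars to small molecules, and 8 of 35 measured members rose and 1 fell, with a median log2 change of 0.17. The rises were uneven, so that most of the family did not pass the test. Of the 35, 15 were dim in both diets, where a change could be missed. The 1 fall is 2.86% of the family, beside 2.72% over all genes. Ugt37A2 was at 11.63, 11.84 and 12.02 on phenobarbital, against 7.9, 7.57 and 7.2 on sucrose, and Ugt35C1 rose by 4.72 ± 0.38. Ugt302C1 had levels of 10.99, 11.18 and 11.28 on phenobarbital, against 9.51, 9.42 and 9.34 on sucrose. Its 3.31-fold difference was free of overlap (adjusted p = 3e-06). Ugt302E1 rose by 3.09 ± 0.26, Ugt37B1 by 2.99 ± 0.19, Ugt49C1 by 1.64 ± 0.17, Ugt49B1 by 1.36 ± 0.17 and Ugt37D1 by 1.16 ± 0.24. Ugt36D1 fell by 1.38, a call that rested on single arrays. Ugt36D1 lost its call without phenobarbital replicates 1 or 3 or sucrose replicates 1 or 2 (log2 change -1.17 to -1.34). Ugt37D1 lost its call without phenobarbital replicates 2 or 3 or sucrose replicate 2 (log2 change 1.05 to 1.18). Ugt36D1, Ugt37D1 and Ugt49B1 were no longer called with the 6 wild-type arrays fitted alone (adjusted p 0.069 to 0.22).

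The EcKL genes encode kinase-like proteins named for ecdysteroid kinase, and their larger number of calls ran in both directions: 15 of 44 measured members rose and 5 fell (median 0.4). CG6908 had 14.5, 14.56 and 14.52 on phenobarbital, against 9.96, 10.03 and 9.33 on sucrose. It moved 27-fold (adjusted p = 1.2e-06), the largest rise of the family. CG9498 was at 11.7, 12.03 and 11.84 on phenobarbital, against 9.31, 9.53 and 9.34 on sucrose, a change of 2.47 ± 0.14. CG16898 (3.41 ± 0.26), CG31104 (2.94 ± 0.33), CG13659 (2.73 ± 0.21) and CG10553 (1.91 ± 0.17) also rose. The steepest falls lay in neighbouring genes. CG10513 fell by 2.34 on the log2 scale beside CG10514 (-5.21) and CG11892 (-5.09), whereas CG10553, CG10560 and CG10562, adjacent to each other on the same arm, rose by 1.07 to 1.91. JhI-26, named as a juvenile hormone-inducible gene of this family, rose by 1.24 ± 0.16. CG2004 lost its call without phenobarbital replicates 2 or 3 or sucrose replicate 2, and CG5126 without phenobarbital replicate 3 or sucrose replicate 2. With the 6 wild-type arrays alone, 8 rises and 3 falls were called in place of 15 and 5. CG10562, CG31104, CG13658, CG31300, CG2004, CG5126, CG6830, CG9259 and CG31097 were no longer called with the 6 wild-type arrays fitted alone (adjusted p 0.052 to 0.13).

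Transporters gave a few calls in each direction. Of 40 ABC transporters, pumps driven by ATP, 4 rose and 2 fell, and the list's median log2 change was -0.04. MRP, an exporter of conjugates, was at 11.99, 12.03 and 12.16 on phenobarbital, against 10.55, 10.62 and 10.74 on sucrose. The diets did not overlap and the change was 1.42 ± 0.06 (adjusted p = 3.5e-06). The P-glycoprotein genes Mdr50 and CG10226 rose by 2.66 ± 0.42 and 1.15 ± 0.24, and ldd by 0.8 ± 0.18. Mrp5 fell by 1.01 and osy by 0.81. Organic anion transporters fell in 2 of 8 measured genes, Oatp58Da by 1.2 and Oatp58Db by 0.79. Among 10 measured MFS transporters, secondary carriers of small molecules, MFS1 and MFS12 fell by 4.27 and 1.83. Leaving out phenobarbital replicate 1, 2 or 3 or sucrose replicate 3 left 2 ABC transporter rises, and 1 fall remained called without phenobarbital replicates 1 or 3 or sucrose replicate 2. CG10226 lost its call without phenobarbital replicates 1, 2 or 3 or sucrose replicates 1 or 3 (log2 change 0.94 to 1.22). ldd lost its call without phenobarbital replicates 1, 2 or 3 or sucrose replicates 1 or 3 (log2 change 0.61 to 0.87). osy lost its call without phenobarbital replicates 1 or 3 or sucrose replicates 1 or 2 (log2 change -0.7 to -0.79). CG10226, ldd and osy were no longer called with the 6 wild-type arrays fitted alone (adjusted p 0.09 to 0.23).

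Stress genes were called one at a time. Keap1, which holds the transcription factor cnc in check, had 8.59, 9.06 and 8.86 on phenobarbital, against 6.22, 6.81 and 6.78 on sucrose. It rose 4.7-fold (adjusted p = 0.001), whereas cnc itself changed by 0.36 ± 0.06, under the 1.5-fold limit (adjusted p = 0.0081). Gclc, the catalytic subunit of the first step of glutathione synthesis, stood at 11.1, 11.3 and 11.24 on phenobarbital, against 10.52, 10.49 and 10.51 on sucrose. That is a 1.63-fold rise (adjusted p = 3.6e-05), while the modifier subunit Gclm gave -0.05 ± 0.07 (adjusted p = 0.64). The peroxidase genes Gtpx and Prx3 rose by 1.01 ± 0.06 and 0.84 ± 0.09. In all 4 of 17 measured members rose and 0 fell (median 0.29). MsrA, a methionine sulfoxide reductase named after its value was seen, was at 10.75, 11.04 and 10.85 on phenobarbital, against 9.22, 8.68 and 8.74 on sucrose. The diets lay apart by 4-fold. Endoplasmic reticulum stress genes gave 0 calls among 18 with limma, with 6 at an unadjusted p under 0.05 (median 0.03), and heat shock and Turandot genes 1 among 13, TotC (3.58 ± 0.61). The metallothionein gene MtnC fell by 1.07, the only call among 11 genes of metal handling, and the autophagy protease gene Atg4a rose by 0.74 ± 0.07, the only one among 20 autophagy genes. A single call is 7.69% of the heat shock and Turandot list, 9.09% of metal handling and 5.0% of autophagy. Over all genes 3.16% rose and 2.72% fell. TotC and MtnC were no longer called with the 6 wild-type arrays fitted alone (adjusted p 0.058 to 0.11).

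Beside the detoxifying enzymes, phenobarbital raised the genes that pass single carbons between glycine, folate and methionine. In that list 9 of 14 measured members rose and 0 fell, with a median log2 change of 1.0. Gnmt, which uses S-adenosylmethionine to methylate glycine, had levels of 13.44, 13.55 and 13.37 on phenobarbital, against 7.66, 7.46 and 5.81 on sucrose. The change of 6.48 ± 0.45 (adjusted p = 4.4e-05) was the largest of the list, and the diets lay more than 5 log2 units apart. Sardh, sarcosine dehydrogenase, turns the product of Gnmt back into glycine and was at 5.86, 6.6 and 6.36 on phenobarbital, against 3.61, 3.23 and 3.78 on sucrose. It was dim in each sucrose array and above the dim range in each phenobarbital array (2.73 ± 0.21, adjusted p = 7.8e-05). CG3999 and CG6415 encode the P and T proteins of the glycine cleavage system and rose by 3.08 ± 0.39 and 2.54 ± 0.2. Shmt, which moves a carbon from serine to folate, had 11.77, 11.95 and 11.88 on phenobarbital, against 10.47, 10.02 and 10.6 on sucrose. The folate interconversion genes pug and Nmdmc rose by 1.62 ± 0.06 and 1.13 ± 0.17, with pug at 11.27, 11.48 and 11.22 on phenobarbital, against 9.75, 9.67 and 9.72 on sucrose. Cth and Cbs, of the route from homocysteine to cysteine, rose by 0.87 ± 0.1 and 0.63 ± 0.14. Sam-S, which makes S-adenosylmethionine, changed by 0.39 ± 0.09, under the 1.5-fold limit, and Ahcy, which removes the product of methylation, by 0.35 ± 0.18 (adjusted p = 0.45). Cbs lost its call without phenobarbital replicates 1, 2 or 3 or sucrose replicate 2 (log2 change 0.47 to 0.67). Cbs and Nmdmc were no longer called with the 6 wild-type arrays fitted alone (adjusted p 0.11 to 0.21).

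Purine synthesis consumes glycine and formyl folate. Of its 10 measured genes, a list drawn up after the values were seen, 5 rose and 0 fell (median 0.62). Gart was at 10.21, 10.42 and 9.96 on phenobarbital, against 7.73, 7.56 and 7.97 on sucrose, a change of 2.44 ± 0.17 (adjusted p = 4.7e-05). Prps, which makes the phosphoribosyl donor, stood at 13.22, 13.19 and 13.17 on phenobarbital, against 12.11, 12.19 and 12.17 on sucrose. Both were free of overlap between diets. Pfas rose by 1.54 ± 0.14, Adsl by 1.28 ± 0.13 and Paics by 1.22 ± 0.09. Of 9 purine and tubule genes 3 rose and 1 fell (median -0.14), with salt at 1.9 ± 0.24 and Irk3, a potassium channel gene, at -0.9 ± 0.15. For purine breakdown, ry, the xanthine dehydrogenase gene of the rosy locus, rose by 2.12 ± 0.2. The enzymes that build and load its molybdenum cofactor, Mocs1 and mal, rose by 1.86 ± 0.19 and 0.9 ± 0.17. Further genes next to the cycle were picked because they rose, so their direction says nothing of a group. Threonine and glycine catabolism gave Tdh at 2.93 ± 0.47, Agxt at 1.31 ± 0.15 and Gcat at 1.8 ± 0.4, and Srr, serine racemase, rose by 1.54 ± 0.17. CG7560 rose by 1.46 ± 0.15 and Mthfs, which returns formyl folate to the pool, by 1.2 ± 0.15. Gcat lost its call without phenobarbital replicates 2 or 3 or sucrose replicates 2 or 3 (log2 change 1.52 to 1.85). mal lost its call without phenobarbital replicate 3 (log2 change 0.8). Gcat, Tdh, Agxt, mal and Mthfs were no longer called with the 6 wild-type arrays fitted alone (adjusted p 0.055 to 0.25).

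**Figure D3:**
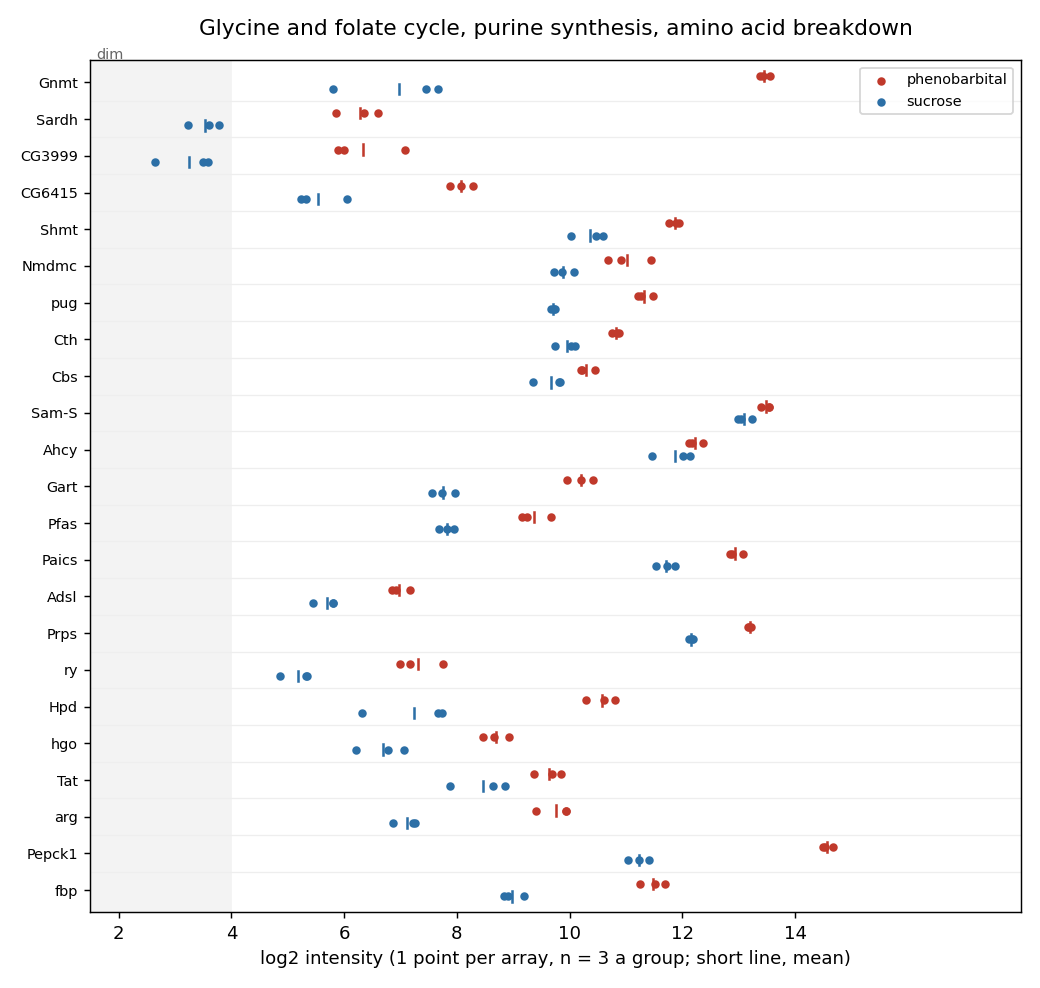
Log2 intensity in each wild-type array (horizontal axis) of genes of the glycine and folate cycle, purine synthesis, amino acid breakdown and gluconeogenesis, with 3 phenobarbital arrays (red, upper row of each gene) and 3 sucrose arrays (blue, lower row); short lines mark means and the shaded zone is dim. Gnmt lies at 13.37 to 13.55 on phenobarbital and 5.81 to 7.66 on sucrose, while the diets lie close together for Sam-S and Ahcy.

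Amino acid breakdown gave more rises than falls. Of 18 amino acid catabolism genes 7 rose and 1 fell (median 0.18). The tyrosine route was called at 4 of its steps: Hpd had 10.61, 10.81 and 10.29 on phenobarbital, against 7.74, 7.67 and 6.31 on sucrose, a change of 3.33 ± 0.38 (adjusted p = 0.00075). Further along, hgo, Faa and, at the first step, Tat rose by 2.0 ± 0.23, 1.29 ± 0.25 and 1.18 ± 0.25. The arginase gene arg was at 9.41, 9.94 and 9.94 on phenobarbital, against 7.25, 7.22 and 6.86 on sucrose, 6.29-fold higher (adjusted p = 2.3e-05). The aspartate aminotransferase genes Got1 and Got2 rose by 0.59 ± 0.05 and 0.92 ± 0.06, and Gs2, glutamine synthetase, fell by 0.61. Of 20 genes of gluconeogenesis, fasting and sugar sensing 4 rose and 2 fell, and the median was -0.09. Pepck1, which commits oxaloacetate to gluconeogenesis, stood at 14.5, 14.67 and 14.54 on phenobarbital, against 11.04, 11.23 and 11.41 on sucrose, a change of 3.35 ± 0.12. Its partner fbp, fructose bisphosphatase, had 11.25, 11.69 and 11.51 on phenobarbital, against 9.2, 8.9 and 8.84 on sucrose. Each separated the diets by more than 2 log2 units (adjusted p = 8.4e-07 and 8e-06). Lst, the hormone limostatin that restrains insulin release in fasting, rose by 1.31 ± 0.16. The remaining rise of this list, tobi, is counted again with the maltase genes below. The sugar-sensing genes sug and daw fell by 1.36 and 0.86. Faa lost its call without phenobarbital replicate 2 (log2 change 1.13). Tat lost its call without phenobarbital replicates 1 or 2 or sucrose replicate 2 (log2 change 1.07 to 1.27). Gs2 lost its call without phenobarbital replicates 1 or 3 or sucrose replicates 1 or 2 (log2 change -0.53 to -0.61). Got1 lost its call without phenobarbital replicate 3 or sucrose replicate 1 (log2 change 0.55 to 0.57). Faa, Tat and Gs2 were no longer called with the 6 wild-type arrays fitted alone (adjusted p 0.07 to 0.2).

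Rises in central carbon metabolism lay in NADPH supply and the pentose phosphate pathway, with single ones in glycolysis and the tricarboxylic acid cycle. Glycogen and trehalose genes gave falls. Of 8 genes of NADPH supply and the pentose phosphate pathway 4 rose and 0 fell. Zw, Pgd and Tkt, also entered in this list, were not among those measured. Men-b, malic enzyme, had 11.52, 11.69 and 11.61 on phenobarbital, against 10.68, 10.84 and 10.78 on sucrose. Idh, isocitrate dehydrogenase, was at 13.27, 13.41 and 13.38 on phenobarbital, against 12.58, 12.56 and 12.58 on sucrose. These were rises of 1.79-fold and 1.72-fold with small spread (adjusted p = 4.9e-05 and 2.4e-05). Taldo and Pgls rose by 0.67 ± 0.1 and 0.64 ± 0.1. In glycolysis the 1 call among 10 genes was Hex-C (1.16 ± 0.18), a hexokinase, and in the tricarboxylic acid cycle it was ScsbetaA (0.65 ± 0.12) among 11. Of 9 genes that turn over glycogen and trehalose, the blood sugar of insects, 3 fell: Glyp, glycogen phosphorylase, by 0.79, Tps1, trehalose phosphate synthase, by 0.67 and the trehalose carrier Tret1-1 by 0.65. The last count was 1 without phenobarbital replicate 1. The single genes smp-30 (2.73 ± 0.18), Miox (2.14 ± 0.29), Galk (1.38 ± 0.12) and Galt (0.88 ± 0.13), of sugar acid and galactose metabolism, were picked because they rose and stand for no list. With the 6 wild-type arrays alone, 2 of the 4 NADPH rises and 1 of the 3 glycogen and trehalose falls kept the call. Pgls lost its call without phenobarbital replicates 2 or 3 (log2 change 0.58). ScsbetaA lost its call without sucrose replicate 3 (log2 change 0.52). Tps1 lost its call without phenobarbital replicate 1 (log2 change -0.54). Tret1-1 lost its call without phenobarbital replicate 1 or sucrose replicate 2 (log2 change -0.54 to -0.55). Hex-C, ScsbetaA, Taldo, Pgls, Tps1, Tret1-1 and Galt were no longer called with the 6 wild-type arrays fitted alone (adjusted p 0.082 to 0.13).

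Among digestive enzymes, maltase genes rose and some protease genes fell. Of 19 maltases, amylases and mannosidases 10 rose and 0 fell. All 10 were maltase genes or the related gene tobi, and the amylase genes Amy-p and Amy-d were not among those measured. There were 0 rises in 13 Jonah proteases and 14 digestive trypsins, where 6 and 3 fell. Mal-B2, a maltase gene, had levels of 12.96, 12.91 and 12.9 on phenobarbital, against 11.46, 11.32 and 11.17 on sucrose. Mal-A1 stood at 14.36, 14.42 and 14.36 on phenobarbital, against 12.74, 12.51 and 12.02 on sucrose. The diets were apart in both, by 1.61 ± 0.07 and 1.95 ± 0.15 (adjusted p = 4e-06 and 7.2e-05). Mal-B1 rose by 3.61 ± 0.21, and the Mal-A cluster gave Mal-A3 at 3.57 ± 0.57, Mal-A4 at 3.14 ± 0.45, Mal-A7 at 2.84 ± 0.32, Mal-A8 at 2.53 ± 0.25, Mal-A2 at 2.44 ± 0.32 and Mal-A6 at 2.17 ± 0.23. The related gene tobi, an alpha-glucosidase known as a target of brain insulin, rose by 3.93 ± 0.3. Probe sets of these clustered paralogs can share signal. Of the 10 rises 6 kept the call with the wild-type arrays alone. Mal-A2, Mal-A3, Mal-A4 and Mal-A7 were no longer called with the 6 wild-type arrays fitted alone (adjusted p 0.054 to 0.1).

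The Jonah genes encode serine proteases of the midgut. Jon99Fi had levels of 8.92, 8.37 and 8.3 on phenobarbital, against 11.95, 12.18 and 12.13 on sucrose. Its log2 change was -3.56 ± 0.22 (adjusted p = 2.4e-05). Falls were also called in Jon65Ai (log2 change -2.37), Jon65Aii (-2.29), Jon25Bii (-1.93), Jon44E (-1.0) and Jon65Aiv (-0.75). The summed intensity of all 13 genes was 73848 to 75905 on phenobarbital and 104090 to 109262 on sucrose. Every phenobarbital array lay below every sucrose array, but the 6 called genes are part of this sum, so that adds nothing to their calls. Among the trypsins, thetaTry fell by 1.47, Ser8 by 1.5 and zetaTry by 1.12. Alkaline phosphatases, a family list made after values were seen, gave 5 falls among 12, with Alp4 at 8.93, 9.45 and 9.34 on phenobarbital, against 11.11, 11.08 and 10.88 on sucrose. Alp2, Alp9, Alp10 and Alp5 fell by 1.23 to 1.66. The peptidases of the neprilysin and angiotensin-converting kind, likewise listed afterwards, gave 7 rises and 1 fall among 31, led by Ance-4 (2.14 ± 0.15) and Nepl11 (1.87 ± 0.16). With the 6 wild-type arrays alone, these were 3 rises and 0 falls, and the 5 alkaline phosphatase and 3 trypsin falls were 2 and 1. Of 34 peritrophic and chitin-binding genes obst-A fell by 3.35 and obst-E by 0.61. That is 5.88% of the list, beside 2.72% over all genes, and 17 of the 34 were dim in both diets. How far fewer midgut cells contribute was not tested. zetaTry lost its call without phenobarbital replicates 1 or 3 or sucrose replicates 1 or 2 (log2 change -0.93 to -1.12). obst-E lost its call without phenobarbital replicates 1 or 3 or sucrose replicates 1 or 2 (log2 change -0.43 to -0.69). Nepl10 lost its call without phenobarbital replicates 2 or 3 or sucrose replicates 2 or 3 (log2 change 1.02 to 1.4). Nepl18 lost its call without phenobarbital replicates 2 or 3 (log2 change 1.78 to 1.9). Jon25Bii, Jon44E, Ser8, zetaTry, obst-E, Alp5, Alp9, Alp10, Nepl10, Nepl14, Nepl17, Nepl18 and Nep2 were no longer called with the 6 wild-type arrays fitted alone (adjusted p 0.055 to 0.27).

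In lipid metabolism, several genes of fatty acid synthesis fell, while 2 genes of the last step of triglyceride synthesis rose. Of 22 genes of fatty acid and triglyceride synthesis 2 rose and 8 fell. FASN1, the main fatty acid synthase, was at 12.29, 12.48 and 12.07 on phenobarbital, against 14.07, 14.28 and 14.2 on sucrose. That was 3.74-fold lower (adjusted p = 7.8e-06). ACC, which supplies its malonyl units, had 11.33, 11.52 and 11.15 on phenobarbital, against 12.23, 12.23 and 12.24 on sucrose. FASN3 fell by 1.44, FASN2 by 0.92, Agpat2 by 0.73 and the desaturase gene Desat1 by 0.62. The rest of the 8 falls were the elongase genes eloF (-2.06) and bond (-1.0), which are counted again among the elongases below. Dgat2 and mdy, both acyltransferases that complete triglycerides, rose: Dgat2 stood at 8.31, 9.08 and 8.84 on phenobarbital, against 2.87, 3.05 and 2.11 on sucrose. It was dim on sucrose in each array and changed by 6.06 ± 0.26 (adjusted p = 3e-06), and mdy by 1.43 ± 0.14. The count of 8 falls was 5 without phenobarbital replicate 3 and 4 without sucrose replicate 2, and 3 with the wild-type arrays alone. FASN2 lost its call without phenobarbital replicate 3 or sucrose replicates 1 or 2 (log2 change -0.8 to -0.93). Agpat2 lost its call without sucrose replicate 2 (log2 change -0.57). Desat1 lost its call without phenobarbital replicates 1, 2 or 3 or sucrose replicate 2 (log2 change -0.49 to -0.63). FASN2, Agpat2 and Desat1 were no longer called with the 6 wild-type arrays fitted alone (adjusted p 0.11 to 0.14).

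Lipid droplet and lipoprotein genes gave 4 rises and 3 falls among 14. Lsd-1, perilipin 1 of the droplet surface, had 7.86, 8.7 and 8.58 on phenobarbital, against 12.02, 12.03 and 11.42 on sucrose. The change of -3.44 ± 0.26 (adjusted p = 7.7e-05) was the largest of the list. The lipase gene bmm, which releases fat from droplets, was at 11.43, 11.58 and 11.5 on phenobarbital, against 10.57, 10.45 and 10.55 on sucrose. Its rise was 1.97-fold (adjusted p = 7.7e-06). Apoltp and Mtp, which build and load lipoproteins, rose by 1.31 ± 0.12 and 0.85 ± 0.09, and LpR2, a lipophorin receptor, by 1.53 ± 0.19. The receptor gene LpR1 fell by 0.67 and the intestinal lipase gene mag by 2.4. Of 12 fatty acid oxidation genes 4 rose and 0 fell (median 0.44). The peroxisomal oxidase gene Acox57D-p stood at 10.48, 10.82 and 10.8 on phenobarbital, against 8.66, 8.2 and 8.71 on sucrose, and the thiolase gene yip2 at 12.33, 12.46 and 12.59 on phenobarbital, against 11.31, 11.11 and 11.37 on sucrose. CPT2 and colt, which carry acyl groups into mitochondria, rose by 0.69 ± 0.12 and 0.67 ± 0.1. Of 9 Niemann-Pick genes, which handle sterols, Npc2d alone was called, falling by 6.35. Of the 4 oxidation rises 2 kept the call with the wild-type arrays alone. colt lost its call without sucrose replicate 3 (log2 change 0.58). CPT2 and colt were no longer called with the 6 wild-type arrays fitted alone (adjusted p 0.078 to 0.12).

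The enzymes that lengthen and reduce very long acyl chains, used for cuticular hydrocarbons and waxes, gave falls and no rises. These lists were made after the values were seen, so their counts are descriptions. Of 20 elongases 8 fell and 0 rose. CG16904 had levels of 10.21, 10.91 and 10.22 on phenobarbital, against 12.71, 12.9 and 12.44 on sucrose. eloF, an elongase of female pheromone synthesis, was at 7.91, 8.85 and 8.43 on phenobarbital, against 10.85, 10.2 and 10.31 on sucrose. The 2 lie beside CG9459 and CG9458, and the 4 neighbours fell by 1.59 to 2.24. Elo68alpha, an elongase of male pheromone synthesis, had 4.53, 6.44 and 4.71 on phenobarbital, against 9.99, 10.01 and 9.25 on sucrose, and CG6660 changed by -4.31 ± 0.42. bond fell by 1.0 and CG31523 by 0.6. Of 15 fatty acyl-CoA reductases 5 fell and 0 rose: Sgp (-2.46 ± 0.3), CG4020 (-1.94 ± 0.2), FarO (-1.79 ± 0.32), CG8303 (-1.71 ± 0.33) and CG12268 (-1.26 ± 0.22). The count of elongase falls was 5 without phenobarbital replicate 1 or sucrose replicate 2, and 3 with the wild-type arrays alone, where 3 reductase falls were left too. CG9459 lost its call without phenobarbital replicates 1 or 3 or sucrose replicates 1 or 2 (log2 change -1.38 to -1.58). bond lost its call without phenobarbital replicates 1 or 3 or sucrose replicates 1 or 2 (log2 change -0.79 to -1.03). CG31523 lost its call without phenobarbital replicate 1 or sucrose replicate 2 (log2 change -0.54). CG8303 lost its call without phenobarbital replicate 1 or sucrose replicate 2 (log2 change -1.55 to -1.64). eloF, CG9458, CG9459, CG31523, bond, CG8303 and CG12268 were no longer called with the 6 wild-type arrays fitted alone (adjusted p 0.053 to 0.16).

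**Figure D4:**
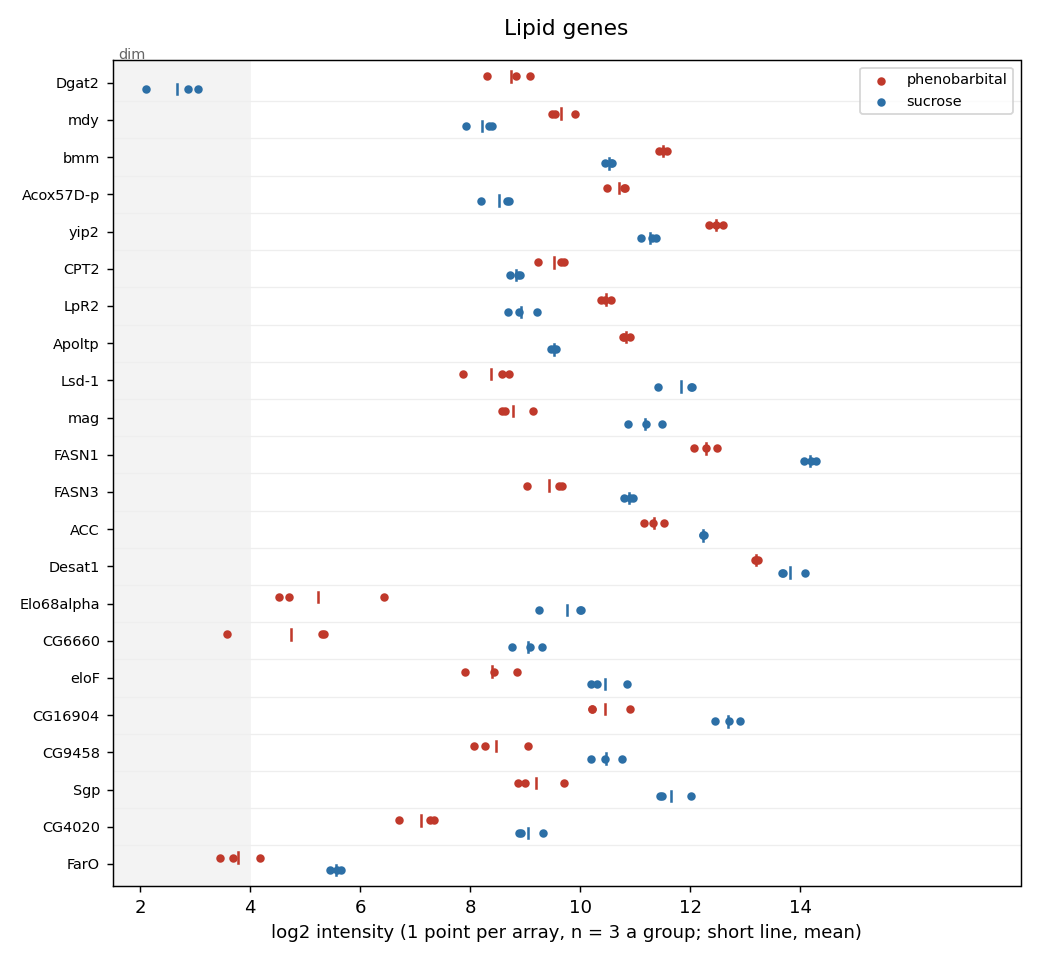
Log2 intensity in each wild-type array (horizontal axis) of genes of triglyceride synthesis, lipid release and oxidation, fatty acid synthesis, chain elongation and acyl-CoA reduction, with 3 phenobarbital arrays (red, upper row of each gene) and 3 sucrose arrays (blue, lower row); short lines mark means and the shaded zone is dim. Dgat2 lies on opposite sides of the dim limit, and from Lsd-1 downwards every gene is lower on phenobarbital in every array.

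Of 12 genes of juvenile hormone turnover and response 2 rose and 1 fell. These are shares of 16.7% and 8.33%, beside 3.16% and 2.72% over all genes. The rises were Jheh2 and JhI-26, and JhI-26 is counted above among the EcKL genes too. Jheh2, an epoxide hydrolase of juvenile hormone, had 14.73, 14.82 and 14.73 on phenobarbital, against 11.97, 12.07 and 11.89 on sucrose. It moved by 2.78 ± 0.06 (adjusted p = 5.8e-08), with a spread within diets of at most 0.09 (SD, n = 3). Kr-h1, a transcription factor of the hormone's response, fell by 0.84. Nuclear receptors and ecdysone response genes gave 0 calls among 23 with limma, with 3 at an unadjusted p under 0.05 (median 0.02). Of these 23, 11 were dim in both diets, where a change could be missed. Of 22 neuropeptide genes CCHa2, a nutrient-responsive peptide of gut and fat body, fell by 1.28, and the 8 clock genes gave 0 calls, with 4 lower at an unadjusted p under 0.05. The 1 neuropeptide fall is 4.55% of its list, beside 2.72% over all genes. CCHa2 was no longer called with the 6 wild-type arrays fitted alone (adjusted p = 0.052).

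Extracellular matrix genes moved mostly downwards. Of 18 basement membrane and hemocyte genes 2 rose and 5 fell. vkg, a collagen IV chain, was at 9.58, 10.07 and 9.83 on phenobarbital, against 10.7, 10.65 and 10.65 on sucrose. LanA, a laminin chain, had 8.66, 8.95 and 9.16 on phenobarbital, against 10.26, 9.67 and 9.96 on sucrose. Neither overlapped between diets, and the changes were -0.84 ± 0.12 and -1.04 ± 0.16 (adjusted p = 0.0036 and 0.0047). Col4a1, Ppn and LanB1 fell by 0.88, 0.83 and 0.66, while Glt and Ndg rose by 1.46 ± 0.16 and 1.12 ± 0.2. The hemocyte genes Hml and NimC1 changed by -0.42 ± 0.27 and -0.45 ± 0.27 (adjusted p = 0.53 and 0.52), and eater was dim in every array. The summed intensity of the 18 genes was 8766 to 12418 on phenobarbital and 11706 to 13275 on sucrose, and the part of hemocyte numbers was not tested. The count of falls was 3 without phenobarbital replicate 3 or sucrose replicate 1, and 0 with the wild-type arrays alone. Ppn lost its call without phenobarbital replicate 3 or sucrose replicates 1 or 2 (log2 change -0.79 to -0.84). LanB1 lost its call without phenobarbital replicates 1, 2 or 3 or sucrose replicates 1 or 3 (log2 change -0.57 to -0.69). Col4a1, LanA, LanB1, Ppn, vkg and Ndg were no longer called with the 6 wild-type arrays fitted alone (adjusted p 0.059 to 0.18).

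The immune genes that were measured moved singly. Of 20 antimicrobial peptide genes 3 rose and 2 fell, with Mtk at 10.66, 11.85 and 12.69 on phenobarbital, against 9.12, 9.03 and 8.51 on sucrose. Dro, AttA, AttB, AttC, CecA1, CecA2, CecC and DptA, also entered in this list, were not among those measured. BomT2 and BomS6 rose by 1.22 ± 0.19 and 0.94 ± 0.17, and Drsl5 and Drsl4 fell by 1.02 and 0.77. PGRP-LB, an amidase that dampens the response to bacteria, rose by 1.43 ± 0.14. Odorant-binding proteins gave 3 rises and 3 falls among 47, with Obp56e (1.55 ± 0.09), Obp99c (1.39 ± 0.14) and Obp56d (0.83 ± 0.12) higher and Obp69a (-1.11 ± 0.23) and Obp56g (-1.35 ± 0.29) lower. Each direction is 6.38% of the list, beside 3.16% and 2.72% over all genes. Of the 47, 22 were dim in both diets. The 3 falls were 0 without phenobarbital replicates 2 or 3 or sucrose replicates 1 or 2, 6 without sucrose replicate 3, and 1 with the wild-type arrays alone. Obp99b had 3.84, 4.85 and 4.35 on phenobarbital, against 8.2, 8.14 and 5.79 on sucrose, an uneven fall that left its arrays far apart within a diet. Of 100 cuticle genes 1 rose, Cpr67Fb (3.89 ± 0.38), and 4 fell; 80 of the 100 were dim in both diets. These are shares of 1.0% and 4.0%, beside 3.16% and 2.72% over all genes. Mtk lost its call without phenobarbital replicates 2 or 3 or sucrose replicates 2 or 3 (log2 change 2.36 to 2.91). Drsl4 lost its call without phenobarbital replicates 1 or 3 or sucrose replicates 1 or 2 (log2 change -0.66 to -0.74). Obp99b lost its call without phenobarbital replicates 1, 2 or 3 or sucrose replicates 1 or 2 (log2 change -2.62 to -3.28). Obp56g lost its call without phenobarbital replicates 2 or 3 or sucrose replicates 1, 2 or 3 (log2 change -1.19 to -1.44). Obp69a lost its call without phenobarbital replicates 2 or 3 or sucrose replicates 1 or 2 (log2 change -0.96 to -1.13). Mtk, BomT2, BomS6, Drsl4, Obp99b, Obp69a and Obp56d were no longer called with the 6 wild-type arrays fitted alone (adjusted p 0.052 to 0.23).

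Core cell machinery gave 0 or 1 calls per list. With limma, no call was made among 68 oxidative phosphorylation genes (median -0.25), 41 cytosolic ribosomal proteins (0.03), 26 proteasome subunits (0.24), 16 aminoacyl-tRNA synthetases (-0.04), 14 ribosome biogenesis genes (-0.15) or 13 genes of DNA replication and the cell cycle (0.4). Muscle and photoreceptor genes also gave none among 15 and 11, with medians of -0.29 and -0.17. Entries of these lists such as Mhc of muscle and ninaE and norpA of photoreceptors were not among those measured. At an unadjusted p under 0.05, 15 of the oxidative phosphorylation genes and 6 of the muscle genes were lower and 8 of the proteasome genes were higher, against 1 photoreceptor gene and 0 genes of the other 4 lists. Among 26 subunits of the vacuolar proton pump Vha100-5 alone fell, by 0.87. That is 3.85% of the list, beside 2.72% over all genes. Vha100-5 lost its call without phenobarbital replicates 1 or 3 (log2 change -0.76 to -0.81). Vha100-5 was no longer called with the 6 wild-type arrays fitted alone (adjusted p = 0.19).

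Some genes of eggshell and seminal fluid production fell on phenobarbital, and the sucrose arrays differed strongly among themselves in the eggshell genes. The vitelline membrane gene Vm26Aa was at 4.18, 4.26 and 4.18 on phenobarbital, against 8.82, 12.04 and 10.48 on sucrose, and Vm34Ca at 5.08, 3.41 and 4.37 on phenobarbital, against 8.49, 12.3 and 12.26 on sucrose. All phenobarbital arrays lay below all sucrose arrays, and these were the only 2 calls among 14 eggshell genes (adjusted p = 0.0013 and 0.0052). The chorion genes, which follow them in oogenesis, did not divide by diet. Cp18 had 2.69, 2.66 and 10.14 on phenobarbital, against 9.08, 2.63 and 12.57 on sucrose. Cp36 had 2.61, 2.54 and 2.57 on phenobarbital, against 11.92, 2.56 and 7.38 on sucrose. Cp18 was thus dim in sucrose replicate 2 and high in phenobarbital replicate 3, and Cp36 was high in sucrose replicate 1 alone to that extent. The summed intensity of the list was 369 to 7447 on phenobarbital and 9770 to 25001 on sucrose. Without sucrose replicate 1 the count of falls was 4 in place of 2. The yolk protein genes Yp1 and Yp3 changed by 0.0 ± 0.09 and 0.03 ± 0.17, and Yp2 had 11.61, 12.12 and 12.56 on phenobarbital, against 12.88, 12.88 and 13.01 on sucrose, a change that missed the threshold (adjusted p = 0.057). fit, a female-biased fat body gene, stood at 2.71, 4.49 and 2.71 on phenobarbital, against 9.44, 8.78 and 8.35 on sucrose. Its change of -5.55 ± 0.46 (adjusted p = 0.00012) was free of the spread seen in the eggshell. Of 15 oocyte and germline genes 0 were called with limma and 0 had an unadjusted p under 0.05, and their median log2 change was 0.12. Vm34Ca was no longer called with the 6 wild-type arrays fitted alone (adjusted p = 0.087).

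The male accessory gland makes the proteins of seminal fluid, and of 22 measured genes 5 fell and 0 rose, with a median log2 change of -1.12 beside 0.01 over all genes. Acp76A had levels of 10.12, 9.59 and 8.69 on phenobarbital, against 11.7, 12.09 and 11.98 on sucrose. Sfp24Bb was at 11.01, 11.36 and 10.59 on phenobarbital, against 13.32, 13.65 and 13.24 on sucrose. Acp53C14c fell by 2.27, Acp29AB by 1.71 and Acp36DE by 1.6. The summed intensity of the 22 genes was 50579 to 91522 on phenobarbital and 131222 to 176102 on sucrose, without overlap. The 5 called genes are part of this sum, so the lack of overlap adds nothing to their calls. Testis genes did not follow: 1 of 30 was called, mia, and their sum was 45017 to 72487 on phenobarbital and 55421 to 92851 on sucrose. The 1 testis fall is 3.33% of the list, beside 2.72% over all genes. The sex-determination gene dsx, picked after its value was seen, fell by 1.33. The part of the share of males and females in each array was not tested. Leaving out any 1 array other than phenobarbital replicate 1 left 3 accessory gland calls. Acp29AB lost its call without phenobarbital replicates 2 or 3 or sucrose replicates 1, 2 or 3 (log2 change -1.43 to -1.8). Acp36DE lost its call without phenobarbital replicates 2 or 3 or sucrose replicates 1, 2 or 3 (log2 change -1.26 to -1.72). Acp76A, Acp29AB, Acp36DE, mia and dsx were no longer called with the 6 wild-type arrays fitted alone (adjusted p 0.063 to 0.13).

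**Figure D5:**
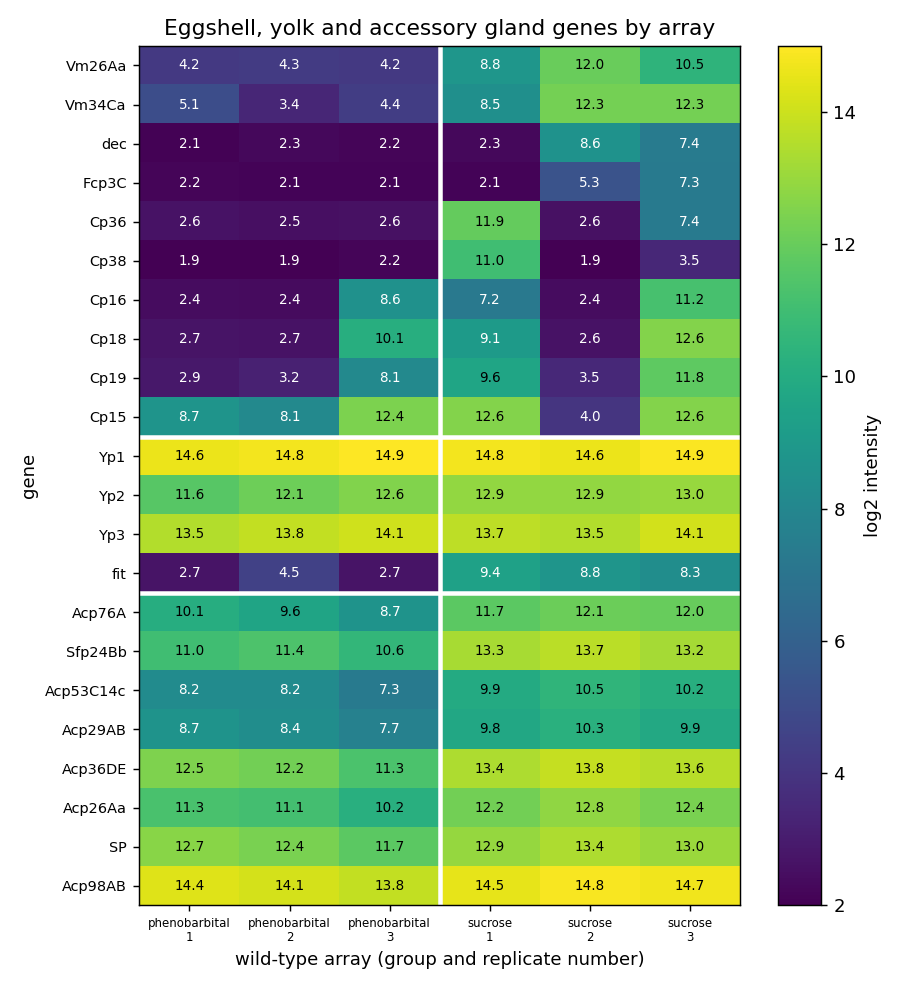
Log2 intensity (colour and number) of eggshell, yolk and accessory gland genes (vertical axis) in each wild-type array (horizontal axis), with the 3 phenobarbital arrays left of the 3 sucrose arrays. The vitelline membrane genes and fit divide by diet, whereas the chorion genes differ from array to array within a diet, with sucrose replicate 2 at 2.63 for Cp18 and sucrose replicate 3 at 12.57.

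More called genes lay outside the 62 lists than inside, 228 of those that rose and 252 of those that fell. The 62 lists hold only 1199 of the 11982 genes, with 151 of the rises and 74 of the falls. Members of the 8 lists drawn up after the values were seen count as outside here, unless also in the 62. Outside, hll had levels of 10, 11.08 and 10.66 on phenobarbital, against 3.05, 2.52 and 2.87 on sucrose, dim on sucrose. CG34166 had 13.82, 13.93 and 13.78 on phenobarbital, against 8.99, 9.22 and 8.76 on sucrose. CG2065 stood at 11.02, 11.28 and 11.32 on phenobarbital, against 7.45, 7.53 and 6.74 on sucrose. These were changes of 7.77 ± 0.3, 4.85 ± 0.13 and 3.97 ± 0.21, each with no overlap. CG34040 rose by 7.5 ± 0.56, CG14957 by 5.53 ± 0.18, acs by 4.92 ± 0.27, CG33282 by 4.64 ± 0.3 and CG32037 by 4.42 ± 0.53. Sid, a stress-induced DNase, rose by 3.31 ± 0.39, next in size to CG9360 (3.72), CG5966 (3.41) and CG18473 (3.39). Among the falls, CG12057 had 3.57, 3.98 and 4.36 on phenobarbital, against 10.89, 9.82 and 8.88 on sucrose, and phu 2.81, 2.74 and 3.09 on phenobarbital, against 8.26, 8.61 and 7.34 on sucrose. CG9837 was at 2.45, 2.72 and 2.52 on phenobarbital, against 7.52, 7.67 and 6.72 on sucrose. All 3 were dim or close to dim on phenobarbital. Besides the elongases Elo68alpha and CG6660 above, the other large falls were in CG7882 (log2 change -4.81), CG3348 (-4.14), CG6788 (-4.12), CG2663 (-3.81), CG18258 (-3.67), CG32751 (-3.54) and CG32750 (-3.53). CG18258 was no longer called with the 6 wild-type arrays fitted alone (adjusted p = 0.095).

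Genes that changed were often neighbours on the chromosome. In the gene order of the Release 6 plus ISO1 MT assembly, 85 of 379 placed genes that rose (22.4%) had a measured neighbour that rose, against 6.11% of all 11891 placed genes with such a neighbour. For falls it was 62 of 325 (19.1%), against 5.32%. Runs of 3 or more adjacent called genes numbered 9 for rises and 5 for falls, and most consisted of paralogs. The rising runs held Mal-A1 to Mal-A4, Mal-A6 to Mal-A8, GstE5, GstE6, GstE7 and GstE9, and GstD1, GstD2 and GstD3. Falling runs held the elongases beside eloF, the EcKL genes CG10513, CG10514 and CG11892, and Semp1, CG15254 and CG15255. Shared signal between paralogous probe sets can add to such runs. Over the 5 large chromosome arms 2.35% to 3.87% of genes rose and 2.27% to 3.13% fell. With the wild-type arrays fitted alone, the share of rising genes with a rising neighbour was 14.2%.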

How the data were processed

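Total RNA of adult flies was measured on oligonucleotide arrays. The deposited intensities were made with GCRMA, per the submitters' processing notes; no version of it is given in the sources used here. Here log2 was taken and no array was rescaled.

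Of 18769 probe sets, 13647 named 1 gene, 402 several and 4720 none in the platform annotation, and symbols were checked through 13544 Entrez identifiers (0 changed). The probe set with the highest mean over the 12 arrays stood for each of 11982 genes; 1094 genes had several. Limma 3.58.1 in R 4.3.3 fitted 1 mean per group to all 12 arrays, with Benjamini-Hochberg adjustment over all probe sets; a call needed an adjusted p under 0.05 and at least a 1.5-fold change. Each ± after a log2 change is its standard error. The fit was tested on simulated data.

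The 62 gene lists and their members were chosen with earlier results of these data known. A further 8 lists, where the text says so, were drawn up after the values were seen. The naming rule took the 12 largest rises and falls, up to 6 called members a list and direction, up to 2 members a list that were not called, and up to 12 called genes each way outside the lists. The other called members, and genes outside the lists beyond these, were named after their values were seen. Gene order came from the table of the Release 6 plus ISO1 MT assembly. A planned search of promoters was not run and no sequences are shown, because no sequence table was used here. Alternatives were no minimum or a 2-fold minimum change, a robust prior with an intensity trend, quantile normalization, leaving out dim probe sets, adding 16 to the intensity, array weights, a block for the replicate number, the 6 wild-type arrays alone, leaving out each of them, and the probe set with the smallest p per gene. Figures were drawn with matplotlib 3.10.9 in Python 3.11.15.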

Additional observations from a re-analysis of the deposited data

How the results depend on the processing

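None of the 315 called genes named here changed direction under any alternative that was run, and named genes without a call were not checked for this. With the 6 wild-type arrays fitted alone, 391 probe sets were called in place of 801, 237 higher and 154 lower in place of 426 and 375. Of the list genes 137 were then called in place of 225, 100 higher and 37 lower in place of 151 and 74. The share of rising genes beside a rising neighbour was 14.2% in place of 22.4%, and 125 of 315 called genes named here lost the call. That fit has fewer arrays to estimate the spread. A 2-fold minimum left 506 probe sets, 214 of them lower, 46 list genes lower, and 370 genes called alike in wild type and mutant in place of 566. Leaving out 1 wild-type array at a time gave 643 to 861 probe sets, and 251 of the 315 named genes kept the call each time. Whether arrays sharing a replicate number are pairs is not known: their deviations correlated at -0.464, 0.583 and 0.596. Arrays of different numbers gave -0.748 to 0.462, so these values do not settle it. With the number as a replicate block 718 probe sets were called, and 20 named genes lost the call. Array weights, quantile normalization and adding 16 to the intensity gave 729, 799 and 738 probe sets. Folds against dim levels have no firm size on these arrays.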

Other observations

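Some called genes that belong to no comparison above were picked after their values were seen. Tspo, a mitochondrial outer membrane protein, was at 12.47, 12.73 and 12.79 on phenobarbital, against 11.94, 11.86 and 11.78 on sucrose, and rose 1.75-fold. CROT and Tmlh, of acyl transfer to and synthesis of carnitine, rose by 1.31 ± 0.14 and 0.94 ± 0.15, and the peroxisomal genes Mfe2 and Pex5 by 0.69 ± 0.12 and 0.61 ± 0.04. The proline synthesis genes P5cr-2 and P5CS rose by 2.01 ± 0.25 and 0.59 ± 0.10, and aay, phosphoserine phosphatase, by 1.14 ± 0.07. Odc1, ornithine decarboxylase, had 9.06, 9.33 and 9.19 on phenobarbital, against 10.26, 9.89 and 10.01 on sucrose, a log2 change of -0.86 ± 0.11. AsnS, asparagine synthetase, and the kinase gene S6k fell by 0.86 and 0.65. Of 12 juvenile hormone binding protein genes Jhbp14 and Jhbp3 fell by 1.35 and 1.45, and of 27 serpins, inhibitors of proteases, 1 rose and 3 fell. The serpin shares were 3.7% and 11.1%, beside 3.16% and 2.72% over all genes. The serpin calls were Spn88Eb (1.83 ± 0.35), Spn28F (-1.72 ± 0.36), Spn77Bc (-1.72 ± 0.41) and Spn75F (-1.55 ± 0.37), and 0 to 2 falls were left when single arrays were left out. Spn75F lost its call without any 1 of the 6 arrays, Spn77Bc without any but phenobarbital replicate 1, and Spn28F without phenobarbital replicates 2 or 3 or sucrose replicates 2 or 3. Spn88Eb lost its call without phenobarbital replicates 2 or 3 or sucrose replicate 1. Pex5 lost its call without phenobarbital replicate 2 (log2 change 0.58). P5CS lost its call without phenobarbital replicate 2 or sucrose replicate 3 (log2 change 0.47 to 0.54). AsnS lost its call without phenobarbital replicate 1 (log2 change -0.78). Mfe2, Tmlh, P5cr-2, P5CS, AsnS, Jhbp3, Spn75F, Spn77Bc and Spn88Eb were no longer called with the 6 wild-type arrays fitted alone (adjusted p 0.057 to 0.21).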
